A study of Oryctolagus cuniculus with 6 samples.

Results

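Uteroglobin, the product of SCGB1A1, and WFDC2 are small secreted proteins that line mucosal surfaces, and both are made by the epithelium of the female reproductive tract. Their RNA was followed here in rabbit blastocysts on Agilent arrays that read 2 colours. Members were every non-control probe that the gene name, description or accessions of the array files assign to SCGB1A1 or WFDC2. This gave 2 of 9716 genes with a symbol, read by 12 of 43603 probes, 10 for SCGB1A1 (gene ID 100009053) and 2 for WFDC2 (gene ID 100009206). All 12 probes passed the filter on dim signals, which asks that at least 3 of a probe's 12 readings (6 arrays with 2 samples each) stand well above background. The genes were chosen by their treated over control ratios on these same arrays, so those ratios are given as a description, with no p-value.

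All groups were blastocysts of the New Zealand White Rabbit, labelled with an age of 6 days, and each extract was total RNA prepared with Trizol. The control embryos were labelled untreated and developed in vivo. Vitrified embryos had been loaded with DMSO and ethylene glycol and plunged straight into liquid nitrogen, which cools too fast for ice to form. Frozen embryos had been loaded with DMSO alone, seeded with ice and cooled at a controlled rate. Both treated groups then went into recipient females, from which viable embryos were recovered, so that effects of cryopreservation and of transfer cannot be told apart. On each of the 6 arrays a treated and a control extract were hybridised together, and each treatment had 3 arrays. The labels name 3 control extracts, each used on 1 vitrified and 1 frozen array, and call the replicates biological. How many embryos or mothers went into an extract is not given in the sources used here, so the spread between arrays may in part be technical. The treated sample carried the red dye Cy5 on replicates 1 and 3 and the green dye Cy3 on replicate 2.

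In the rabbit, uteroglobin is the classic progesterone-dependent protein of the uterine fluid that bathes the blastocyst before it implants. It belongs to the secretoglobins, is a disulphide-linked dimer that binds small hydrophobic molecules, and is also the main secretory protein of club cells in the airway. WFDC2, also called HE4, carries WAP domains, the cysteine-rich fold found in many protease inhibitors, and is made by epithelia of the reproductive tract and airway. A day 6 blastocyst floats free in the uterus inside its coverings. It consists of trophectoderm, which will form placenta, an inner epiblast and the early endoderm.

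The probes show what part of each transcript was read. The first and the last SCGB1A1 probes are printed because their results differed, with capitals for the bases that no probe of the other set of 5 holds. The WFDC2 probes are printed because they read separate stretches of one transcript and gave closely similar ratios. Capitals in the last line mark the polyadenylation signal AATAAA, and only the final 30 bases of that probe are shown.
SCGB1A1 probe A_04_P003570: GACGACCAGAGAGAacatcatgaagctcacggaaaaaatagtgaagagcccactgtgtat
SCGB1A1 probe A_04_P001936: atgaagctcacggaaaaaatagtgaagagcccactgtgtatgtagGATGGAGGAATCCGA
WFDC2 probe A_04_P003706: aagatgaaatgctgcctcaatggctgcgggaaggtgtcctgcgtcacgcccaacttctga
WFDC2 probe A_04_P000901: gatgAATAAAacactgctctcagcaaaaaa

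The SCGB1A1 probes, each 60 bases long, fall into an earlier set of 5 that starts at bases 259 to 263 of the transcript and a later set of 5 that starts at bases 273 to 278. Together they cover 79 bases, and all 10 share a stretch of 41 bases. They are therefore repeated readings of nearly one site and not independent measurements. Their GC content lay between 43.3% and 45.0%. The WFDC2 probes read bases 333 to 392 and 505 to 564, with 112 bases between them and a GC content of 55.0% and 48.3%. No other probe of the array shared a run of 20 bases with any of the 12. The files list all 12 probes as unmapped, so no genome position is given.

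SCGB1A1 was higher in the treated than in the control sample on every array, with each of its 10 probes. Some of these log2 ratios were near 0. The lowest was 0.01, on a later probe of vitrified replicate 3 whose control was not well above background. Over all tested probes, 5.54% were above 0 on all 6 arrays. On the brightest probe, A_04_P003570, the log2 ratio of vitrified over control was 2.53, 2.52 and 0.55 for replicates 1, 2 and 3. The log2 ratio of frozen over control on that probe was 1.25, 2.00 and 0.78. Vitrified replicates 1 and 2 were high and close to each other, while vitrified replicate 3 was the lowest of the 6 arrays, below every frozen array. The vitrified and frozen ratios therefore overlapped. The mean log2 ratio was 1.87 ± 1.14 (SD, n = 3) for vitrified and 1.34 ± 0.62 (SD, n = 3) for frozen embryos.

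**Figure D1:**
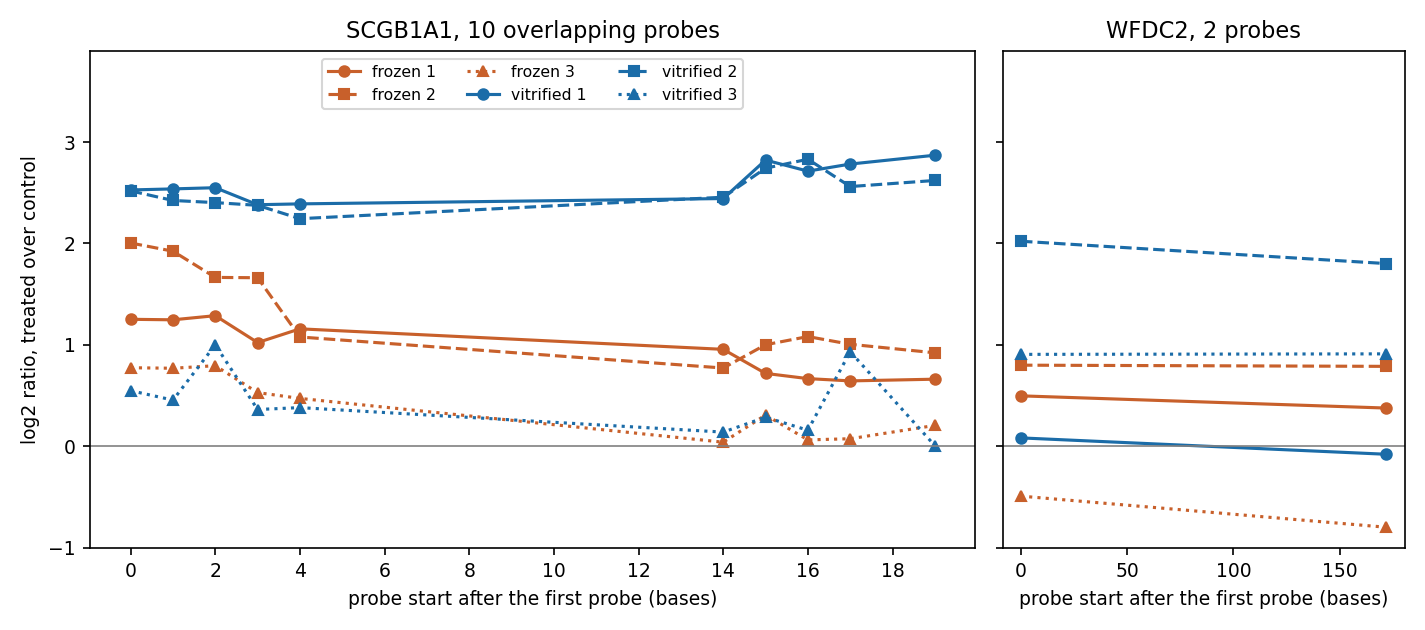
Log2 ratio of treated over control for each probe of SCGB1A1 (left) and WFDC2 (right), against the start of the probe in bases after the first probe of that gene. Each line is 1 array, coloured by treatment, with the marker and line style giving the replicate. All SCGB1A1 points lie above 0, and WFDC2 lies below 0 on frozen replicate 3.

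With all 10 SCGB1A1 probes, vitrified replicates 1 and 2 were the highest arrays. The lowest array was vitrified replicate 3 with 6 probes and frozen replicate 3 with 4, and 4 of the other 9 probes ordered all 6 arrays as A_04_P003570 did. Across all 10 probes the log2 ratio ran from 2.38 to 2.87 on vitrified replicate 1, from 2.24 to 2.83 on replicate 2 and from 0.01 to 1.00 on replicate 3. On the frozen arrays the 10 probes ran from 0.65 to 1.29, from 0.77 to 2.00 and from 0.04 to 0.80 for replicates 1, 2 and 3. No SCGB1A1 probe on vitrified replicates 1 and 2 was as low as the highest one on the other 4 arrays. The ratios near 0 were those of later probes on vitrified replicate 3 and frozen replicate 3. Many control signals of the later probes on these arrays were not well above background. The earlier probes averaged 0.55 and 0.67 there.

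The signals behind these ratios were low in controls. Before normalisation, A_04_P003570 gave a scanner intensity of 3385 in the vitrified and 186 in the control sample of replicate 1, where the vitrified sample carried Cy5. On replicate 2, with the dyes swapped, these intensities were 745 and 391, and on replicate 3 they were 366 and 179. The frozen and control intensities of that probe were 1036 and 150 on replicate 1, 599 and 257 on replicate 2, and 415 and 155 on replicate 3. The treated signal was the brighter one with either dye, and the ratios above are those after dye normalisation within each array.

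On the normalised log2 intensity scale, the vitrified samples read 10.73, 10.46 and 8.42 on A_04_P003570 and the frozen samples 8.95, 9.66 and 8.38. The control samples on the vitrified arrays read 8.20, 7.95 and 7.87, and those on the frozen arrays 7.70, 7.66 and 7.61. All 6 treated levels lay above all 6 control levels on this probe, and the controls were tight, at 7.83 ± 0.22 (SD over 6 channel readings of 3 labelled extracts). The treated levels spread far more, from 8.38 to 10.73, so the spread of the ratio came mostly from the treated side. From the lowest up, frozen replicate 3 and vitrified replicate 3 were almost equal, then came frozen 1, frozen 2, vitrified 2 and vitrified 1. Such non-overlap of treated and control levels over 6 arrays held for 2 of the 10 SCGB1A1 probes and 0 of the 2 WFDC2 probes, against 0.553% of all tested probes. Since the ratios of these arrays chose the genes, nothing further is read from that count. The array reads RNA of whole extracts, in which more cells that make a transcript and more transcript per cell cannot be told apart.

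**Figure D2:**
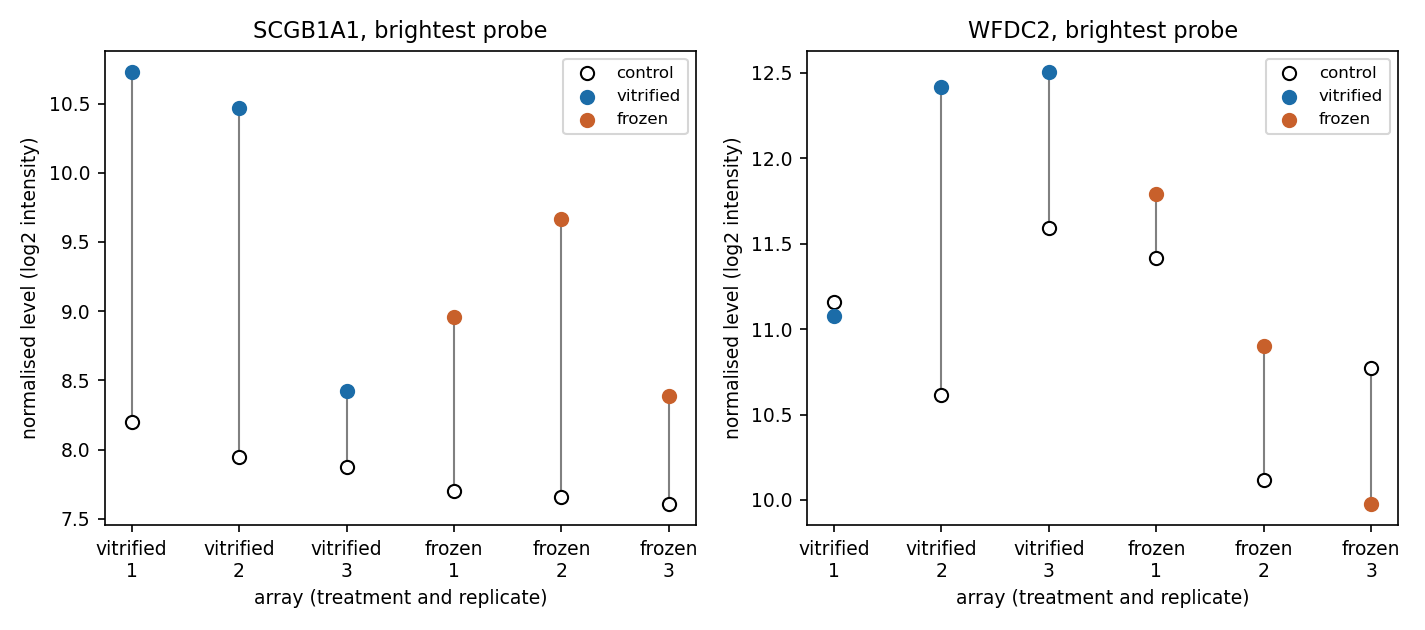
Normalised level (log2 intensity) of the brightest SCGB1A1 probe (left) and WFDC2 probe (right) in both samples of each array, with open circles for control and filled circles for treated samples joined by a line. The SCGB1A1 controls stay between 7.61 and 8.20 while treated samples reach 10.73, and WFDC2 levels of treated and control samples overlap.

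Fitted across all arrays with a term for the dye, A_04_P003570 stood at 2.03 ± 0.32 (log2, SE, n = 3 arrays) in vitrified and 1.51 ± 0.32 in frozen embryos. The SE comes from 1 fit that pools the spread over all 6 arrays, so it is the same for both treatments. The dye term was -0.49 on this probe, and with only replicate 2 swapped, dye and replicate 2 cannot be told apart. Ordered from the highest value down, A_04_P003570 was number 11 and number 16 of the 30761 tested probes. The 10 SCGB1A1 probes ranged from 1.77 to 2.21 in vitrified and from 0.69 to 1.51 in frozen embryos. Limma's test over all probes, at a Benjamini-Hochberg adjusted p under 0.05, called 0 of the 12 SCGB1A1 and WFDC2 probes in either comparison. It called 0.0195% of tested probes in vitrified and 0.185% in frozen embryos, or 6 and 57 probes, with 5343 and 4069 at an unadjusted p under 0.05. Vitrified replicates 3 and 1 each changed this count when left out. Without vitrified replicate 3, all 10 SCGB1A1 probes were called higher in vitrified embryos. There 0.052% of probes, 16 in number, were called higher, and those 16 include the 10 SCGB1A1 probes themselves. Without vitrified replicate 1, the 4 earliest SCGB1A1 probes were called higher in frozen embryos, where 0.601% of probes were. Because these ratios chose the gene and the 10 probes repeat one site, nothing is read from these counts beyond their dependence on an array. Leaving out each of the other 4 arrays, or changing the processing, left all 12 probes uncalled.

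Between the treatments, the SCGB1A1 ratio was 0.52 ± 0.44 (log2, SE) higher in vitrified than in frozen embryos on A_04_P003570, with a range of 0.49 to 1.52 over the 10 probes. Limma called 0 of 30761 probes for this difference, with 2320 at an unadjusted p under 0.05. The value rested on single arrays. It was -0.05 without vitrified replicate 1 and 1.09 without vitrified replicate 3. Taken from the treated levels alone, without the controls, it was 0.87. Arrays lay on 2 slides, and the difference was 0.83 with the slide as a covariate. On the slide that held vitrified replicate 1 and frozen replicates 1 and 2, the vitrified ratio of 2.53 lay above both frozen ratios. On the other slide, vitrified replicates 2 and 3 lay on either side of frozen replicate 3.

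The earlier and later SCGB1A1 probes gave different sizes of change. Averaged over the 5 earlier probes, the log2 ratio was 2.48, 2.39 and 0.55 on the vitrified arrays and 1.19, 1.67 and 0.67 on the frozen arrays. Over the 5 later probes it was 2.73, 2.64 and 0.31 on the vitrified and 0.73, 0.96 and 0.14 on the frozen arrays. In frozen embryos the later probes read lower than the earlier ones on 3 of 3 arrays, and in vitrified embryos they read higher on replicates 1 and 2 and lower on replicate 3.

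The difference of later minus earlier probes was 0.25, 0.25 and -0.24 on the vitrified arrays and -0.46, -0.71 and -0.53 on the frozen arrays. The ranges of the treatments did not overlap. To set this beside other transcripts, the latest minus the earliest of each transcript's overlapping probes was taken for 870 transcripts. Vitrified arrays all lay above frozen arrays for 2.18% of them, or 19, and all below for 31. The difference between group means for SCGB1A1 on that measure was 0.71, where the median size over transcripts was 0.07. One other transcript, with no symbol matched here and singled out after its value was seen, had a larger one at -1.38. The probes had been noted as differing before this was computed, so the position is a description.

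Dim control signals touch the later probes most. Each SCGB1A1 probe was well above background in 6 of 6 treated samples. In controls, 3 of the earlier probes were well above background on 6 of 6 arrays, and the 5 later probes on 4 of 6. On vitrified replicate 3, 0 of the 5 later probes were well above background in the control, and on frozen replicate 3 only 1 was. Ratios of the later probes on these 2 arrays thus have a control side that was not resolved from background. On frozen replicates 1 and 2, at least 4 of the 5 later controls were well above background, and the later probes read lower than the earlier ones. Above local background, the later controls averaged 63.2 on frozen replicate 1 and 104.9 on replicate 2. Negative control spots of these channels gave 31.8 and 9.9. In treated samples, later probes averaged 81%, 86% and 58% of the earlier probes' signal above local background on the vitrified arrays. On the frozen arrays these treated shares were 44%, 43% and 50%. In controls they were 63%, 62% and 87% on the vitrified and 76%, 57% and 97% on the frozen arrays. The parts of treated signals and of dim control signals in the difference between earlier and later probes were not tested.

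WFDC2, the WAP domain protein, had no common direction. On its brightest probe, A_04_P000901, the log2 ratio of vitrified over control was -0.08, 1.80 and 0.91, and that of frozen over control was 0.38, 0.79 and -0.80. The more upstream probe, A_04_P003706, gave 0.08, 2.02 and 0.91 in vitrified and 0.50, 0.80 and -0.49 in frozen embryos. Vitrified replicate 2 was the highest and frozen replicate 3 the lowest with both probes, and vitrified replicate 1 was near 0 with both. Although the probes share no base, they differed by at most 0.31 on any array. Ratios were above 0 on 4 of 6 arrays with A_04_P000901 and on 5 of 6 with A_04_P003706.

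The order of arrays differed between the genes. Vitrified replicate 1, where SCGB1A1 was highest, was close to 0 for WFDC2, and vitrified replicate 3, where SCGB1A1 was lowest on its brightest probe, had the second highest WFDC2 ratio. Vitrified replicate 2, where treated samples carried Cy3, was high for both.

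WFDC2 was well above background in both samples of all 6 arrays. The scanner intensities of A_04_P000901 for treated and control were 4707 and 1315, 2550 and 2650, and 6460 and 1608 on vitrified replicates 1 to 3. On frozen replicates 1 to 3 they were 8939 and 1636, 1369 and 1617, and 1495 and 1203. The treated signal was the brighter one on 4 of the 6 arrays before dye normalisation, and the exceptions were both arrays of replicate 2, where the treated sample carried Cy3.

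Normalised, the vitrified samples read 11.08, 12.42 and 12.50 on A_04_P000901 and the frozen samples 11.79, 10.90 and 9.98, in log2 intensity. Their controls read 11.16, 10.61 and 11.59 on the vitrified arrays and 11.41, 10.11 and 10.78 on the frozen arrays. The highest levels belonged to vitrified replicates 3 and 2 and the lowest to frozen replicate 3, and treated and control levels overlapped widely. Controls spread over 10.94 ± 0.55 (SD over 6 readings), more than those of SCGB1A1.

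The fitted log2 value of A_04_P000901 was 1.08 ± 0.26 (SE, n = 3 arrays) in vitrified and 0.32 ± 0.26 in frozen embryos. The dye term of this fit was -0.60, larger in size than the frozen value, and the SE is what remained after it. Only replicate 2 had the treated sample in Cy3, so dye and replicate 2 cannot be told apart. The plain means were 0.88 ± 0.94 (SD) and 0.12 ± 0.82 (SD), so each spread was about as large as its mean or larger. The frozen value of A_04_P000901 was -0.00 without frozen replicate 1 and 0.58 without frozen replicate 3. On A_04_P003706 the fitted values were 1.20 ± 0.23 and 0.46 ± 0.23. Vitrified minus frozen was 0.76 ± 0.35 on A_04_P000901 and 0.73 ± 0.32 on A_04_P003706. On one slide the vitrified ratio lay below both frozen ratios, and on the other both vitrified ratios lay above the frozen one. With the slide as a covariate the difference was 0.75.

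Controls that the labels name as one extract were read on 2 arrays each, once beside a vitrified and once beside a frozen sample. For SCGB1A1 the control read higher on the vitrified array in all 3 pairs, by 0.50, 0.29 and 0.27 in log2 intensity. For WFDC2 the control on the vitrified array differed from that on the frozen array by -0.26, 0.50 and 0.82. The WFDC2 control pairs thus disagreed by as much as some of the treated over control ratios did. The control is the denominator of each ratio, so these gaps enter the difference between vitrified and frozen ratios. Treated levels alone differed between vitrified and frozen samples by 0.87 for SCGB1A1 and 1.11 for WFDC2, beside 0.52 and 0.76 for the ratios.

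Genes whose ratios over the 6 arrays lay nearest were found by the root mean square difference from the brightest probe, over 8141 other genes with 1 probe each. For SCGB1A1 the nearest were OTUD6A at 0.88, the cytochrome P450 CYP2A11 at 1.03, the mitochondrial carrier UCP2 at 1.04, C16H19orf53 at 1.06 and NT5DC3 at 1.07. On the log2 scale these distances are about the size of many of the SCGB1A1 ratios themselves. For WFDC2 the nearest were ALAS2, the heme synthesis enzyme of red cell precursors, at 0.50, LRATD2 at 0.58, the adenosine deaminase ADA at 0.62, SELENOM at 0.62 and SSBP3 at 0.62. ALAS2 had log2 ratios of 0.05, 1.45 and 0.53 in vitrified embryos, the same order of arrays as WFDC2. In frozen embryos it had 0.70, 0.01 and -0.10, where replicates 1 and 2 stood in the opposite order. The ALAS2 probe was dim, well above background in 4 of 6 control and 5 of 6 treated samples. Treated over control ratios of same-numbered arrays share a labelled control extract, so this nearness is over 6 arrays that are not fully independent.

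Other genes of the uterine lining were read beside these members. Of 25 genes listed for uterine epithelium and secretions, 17 had a probe with a matched symbol and 14 were tested. In vitrified embryos 10 of these 14 were above 0, with a median log2 of 0.05 and 0 called. In frozen embryos 9 of 14 were above 0, with a median of 0.11 and 1 called. The medians over 8142 tested genes were -0.00 in both comparisons, with 1 gene called higher in vitrified embryos and 10 called higher and 7 lower in frozen embryos. Of all these genes, 49% were above 0 in vitrified and 49.1% in frozen embryos. The list holds SCGB1A1 and WFDC2 themselves, and was set with results of these arrays known. Without the pair, 8 of 12 genes were above 0 in vitrified embryos with a median of 0.04, and 7 of 12 in frozen embryos with a median of 0.03. Many of these 12 were dim in controls. SPP1 was well above background in 0 of 6 control samples, PGR and PIGR in 2, and LCN2 and DPP4 in 3. LIF and HBEGF reached 4, AREG and STC1 5, and CLU, CST3 and SULT1E1 6. Medians near 0 thus rest in part on dim probes.

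STC1, stanniocalcin, a secreted hormone that uterine glands produce, rose in frozen embryos by 0.80 ± 0.11 (log2, SE, n = 3 arrays, limma adjusted p = 0.0481). The adjusted p ranged from 0.0183 to 1 over 18 alternatives, 6 of which kept the call. The call was lost without each array except vitrified replicate 1. In vitrified embryos STC1 was at 0.43 ± 0.11. STC1 was well above background in 5 of 6 control samples.

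SPP1, osteopontin, an adhesion protein of the uterine glands and of many other cells, had log2 ratios of 0.78, 0.90 and 0.13 on the vitrified arrays and 0.80, 0.94 and 0.21 on the frozen arrays. As with SCGB1A1 on its brightest probe, replicate 3 was the lowest of each treatment. Fitted, SPP1 stood at 0.68 ± 0.16 in vitrified and 0.72 ± 0.16 in frozen embryos, not called. Its probe was well above background in 6 of 6 treated and 0 of 6 control samples. SPP1 thus passed the filter on dim signals through its treated samples alone. Nothing is read from its place among the list genes above 0. A bound was taken against the lowest signal well above background, or the probe's own where higher. By it, the mean SPP1 level was at least 1.35-fold higher in vitrified and at least 1.56-fold higher in frozen embryos. These bounds need not hold on each array. Here the dim side was taken as a mean over the 3 control channels of each treatment, from levels open to dye bias.

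CST3, cystatin C, a secreted protease inhibitor that most tissues make, was at 0.44 ± 0.13 in both treatments. Its ratios were 0.27, 0.91 and -0.21 on the vitrified arrays and 0.24, 0.65 and 0.11 on the frozen arrays. CLU, clusterin, a secreted chaperone, was at 0.00 ± 0.12 in vitrified and -0.56 ± 0.12 in frozen embryos, a difference of 0.57 ± 0.17. SULT1E1, the estrogen sulfotransferase, was at -0.32 ± 0.25 and -0.65 ± 0.25, with -1.55, -0.37 and -0.11 on frozen replicates 1, 2 and 3. The progesterone receptor PGR, which mediates the hormone's induction of uteroglobin in the uterus, was at 0.06 and 0.01. Its probe was dim, well above background in only 2 control and 4 treated samples, so no absence of change is read from these values. The estrogen receptor ESR1 was well above background in 0 of 12 channels. None of these was called.

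**Figure D3:**
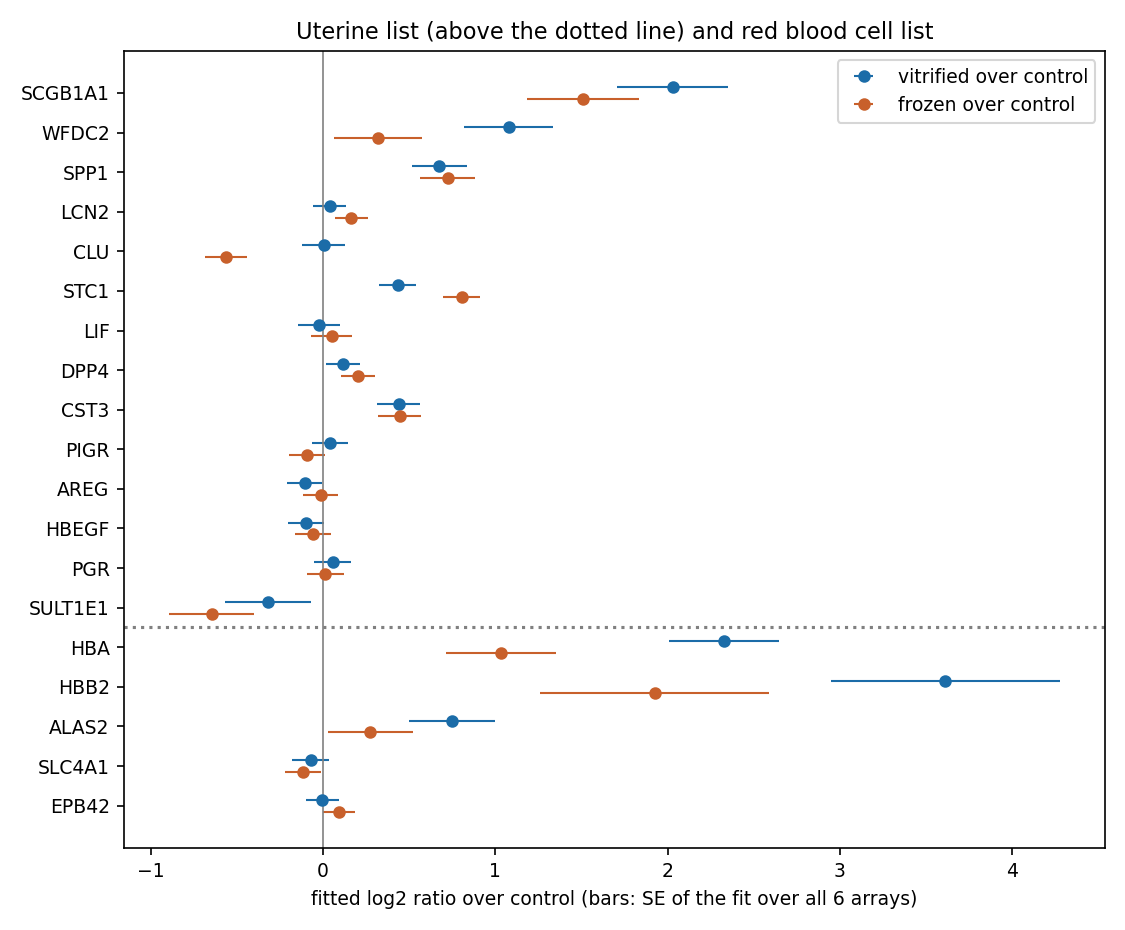
Fitted log2 ratio over control for the 14 tested genes of the uterine list and, under the dotted line, the 5 tested red blood cell genes, with bars for the SE of the fit, which pools the spread over all 6 arrays. SCGB1A1 and WFDC2 lead the uterine list in vitrified embryos, and most other uterine genes lie near 0, many of them on probes that were dim in controls. The globins HBA and HBB2 lie as high as SCGB1A1 or higher in vitrified embryos.

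Few relatives of either gene could be read, since 3 of 7 secretoglobins and 10 of 14 WAP domain genes listed had no matched symbol. SCGB3A1, the only secretoglobin of the list tested beside SCGB1A1, was well above background in 6 of 6 control and 6 of 6 treated samples and stood at 0.21 in vitrified and 0.07 in frozen embryos. SCGB1D1 and SCGB3A2, with 5 probes each, were well above background in 0 of 12 channels, as was SCGB1D, a further secretoglobin looked up after other values were seen. Of the WAP domain genes, 3 were tested. WFDC8 was at -0.04 and -0.00 and WFIKKN2 at -0.00 and -0.03, beside 1.08 and 0.32 for WFDC2, and none was called. WFDC8 was well above background in 2 of 6 control and 4 of 6 treated samples, and WFIKKN2 in 4 and 5. The median of the 3 was -0.00 in vitrified embryos and 0.03 between treatments. With the scanner software's ratio these medians were 0.38 and 0.53, and that in frozen embryos was 0.01. EPPIN was not tested, with at most 1 channel well above background.

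Markers of other cells were read beside the members, since the labels call the tissue blastocyst. Of 11 red blood cell genes listed, 5 were tested. HBB2, a beta globin, had log2 ratios of 1.78, 4.61 and 4.29 in vitrified and 3.60, 1.25 and 0.76 in frozen embryos. HBA, alpha globin, had 2.27, 2.43 and 2.52 in vitrified and 2.33, 0.47 and 0.53 in frozen embryos. The globins were above 0 on every array, like SCGB1A1, but in another order of arrays, and were not called. The list's summed log2 level ran from 13.9 to 17.3 in vitrified and from 12.1 to 15.3 in frozen samples. In the controls of those arrays it ran from 12.03 to 13.5 and from 11.5 to 12.2. The membrane genes SLC4A1 and EPB42 lay near 0 on dim probes. EPB42 was well above background in 1 of 6 control and 2 of 6 treated samples, and SLC4A1 in 4 and 4. With probes well above background in 6 of 12 channels, the list's median was 1.54 in vitrified and 0.65 in frozen embryos. With the filter used throughout, the median was 0.75 in vitrified and 0.28 in frozen embryos. That median rested on single arrays, at 0.14 in vitrified embryos without vitrified replicate 2 and 0.88 in frozen embryos without frozen replicate 2. In frozen embryos it was 0.15 without vitrified replicate 2 and 0.15 without frozen replicate 1. The part of blood RNA in the SCGB1A1 and WFDC2 ratios was not tested.

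The leukocyte list, with 4 of 12 genes tested, had medians of 0.08 and -0.05. PTPRC and CD3E, which define leukocytes and T cells, were well above background in 0 of 12 channels. ITGB2, the brightest tested, was at -0.25 and -0.09 and well above background in 6 of 6 control samples. CD14 was at 0.29 and -0.00 and CD68 at 0.07 and -0.22, each well above background in 5 of 6. CD2, in 3 of 6, was at 0.09 and 0.05. The summed log2 level stayed between 10.5 and 11.0 in all samples, where ITGB2 alone had a mean control level of 10.30. The stroma and muscle list, with 6 of 10 tested, had medians of 0.14 and -0.03, with the collagen gene COL1A1 at 0 of 12 channels and summed levels between 9.8 and 10.4. In that list COL1A2, at 0.13 and -0.25, and DES, at 0.21 and 0.02, were well above background in 6 of 6 control samples. COL3A1, DCN, LUM and PDGFRB were so in 1 to 4 of 6. Neither list had a called gene. In the oviduct list, 2 of 8 genes were tested. OVGP1, the oviduct glycoprotein, was at 0.05 and -0.04 and CAPS at 0.06 and 0.16, while FOXJ1, SNTN and RSPH1, genes of ciliated cells, were not well above background in more than 1 channel.

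Markers of the embryo's own layers were also read, as treated over control ratios. The trophectoderm list, with 6 of 11 genes tested, had medians of 0.28 in vitrified and 0.30 in frozen embryos, with 0 called. GATA2, a trophectoderm transcription factor, was at 0.72 and 0.56. Of 8 epiblast genes, 2 were tested, with medians of 0.12 and -0.39. POU5F1, the pluripotency factor, was at -0.09 and -0.82, and DPPA5, a germ cell and pluripotency marker, at 0.32 and 0.04. The hypoblast and yolk sac endoderm list, with 7 of 11 tested, had medians of -0.09 in vitrified and -0.9996 in frozen embryos. The vitrified median rested on single arrays, at 0.29 without vitrified replicate 1 and -0.38 without vitrified replicate 3. RBP4, TF and APOA1, the lowest of the list in frozen embryos, also read -1.34, -1.07 and -1.45 on vitrified replicate 1. On that array the list ran up to 0.34, for AFP. APOA2, an apolipoprotein, fell by 1.00 ± 0.12 (log2, SE, n = 3 arrays) in frozen embryos, with a limma adjusted p = 0.0427 that ranged from 0.0149 to 1 over 18 alternatives. That call was lost without each array except vitrified replicate 1. The part of a shift between embryonic layers in the SCGB1A1 ratio was not tested.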

How the data were processed

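Total RNA of 6 treated and 6 control samples was read on 6 two-colour arrays. Mean spot intensity and median local background were deposited unnormalised, per the file headers, as written by Agilent Feature Extraction 10.10.1.1 (also named in the submitters' processing notes). That software's log10 ratio (red over green, background-subtracted and dye-normalised per the file headers) served as an alternative. The genome build behind the array design is not given in the sources used here.

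From the intensities, background was corrected with normexp (offset 50) in limma 3.58.1 under R 4.3.3, each array had its own loess fit that ignored control spots (weight 0), and repeated spots were averaged by probe. Levels per channel are after loess and Aquantile. The test took the 30761 of 43603 probes that stood well above background in 3 or more of 12 readings. Log2 ratios were fitted with a coefficient per treatment and a dye term (3 residual degrees of freedom, eBayes, Benjamini-Hochberg over all tested probes, threshold 0.05). The number of arrays limits the precision, and 3 against 3 samples allow an exact p no smaller than 0.1. Symbols came from the files' accessions and the RefSeq gene table of assembly mOryCun1.1: 21389 probes had 1 symbol, 1343 a gene number only, 138 several genes and 20733 none.

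The genes, lists, alternatives and rules were chosen with earlier results of these data known. Besides SCGB1A1 and WFDC2, list genes that passed the test or had the 3 largest absolute values in a comparison could be named, together with defining markers, and the 5 nearest genes of each. Lists are described by counts and medians over the brightest probe per gene. The fit was tested on simulated data. Alternatives covered background, normalisation, filter, dye, block, slide, spread, flags, probe choice, single channels and leaving out each array.

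Between 44.7% and 58.0% of probes were well above background in green and between 64.2% and 74.5% in red. Slide 1 held vitrified replicate 1 and frozen replicates 1 and 2, and slide 2 the other arrays.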

Additional observations from a re-analysis of the deposited data

Results flagged for a closer look

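The control level of SCGB1A1 probe A_04_P001937 on vitrified replicate 3 stood apart from the other 5 control readings. It read 6.47 in log2 intensity, where the highest was 7.40, and the gap to its neighbour was 0.694 of the whole range. That spot was not well above background. Of 12 probes looked at, this was the only one set apart in this way among its controls, and chance sets apart about 1 group in 20.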

How the results depend on the processing

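With a random block for the replicate number, all fitted values of SCGB1A1 and WFDC2 were identical to those reported (2.03, 1.51 and 0.52; 1.08, 0.32 and 0.76), and calls were 8, 61 and 0 for vitrified, frozen and their difference. Deviations of same-numbered arrays correlated at 0.0202, 0.598 and 0.169 for replicates 1, 2 and 3, and the block correlation was -0.103. Under the block, 0 of the 12 SCGB1A1 and WFDC2 probes were called, and STC1 and APOA2 were still called in frozen embryos.

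The vitrified count of 6 calls became 0 with the scanner software's ratio and 0 with the slide as a covariate, and ranged from 0 to 16 with 1 array left out. The frozen count of 57 became 1 with the scanner ratio, 3 with an offset of 16, 33 with median centring (8 higher and 25 lower, against 27 and 30), 8 without the dye term and 0 with the slide, and ranged from 0 to 502. The SCGB1A1 frozen value of 1.51 was 0.71, 0.82, 0.78, 0.69 and 0.74 on the later probes, and vitrified minus frozen was 1.52 on A_04_P001937. With 1 array left out, SCGB1A1 ranged from 1.53 to 2.52 in vitrified, from 1.39 to 1.63 in frozen and from -0.05 to 1.09 between them, and WFDC2 from 0.86 to 1.36, from -0.00 to 0.58 and from 0.46 to 1.13. Without the dye term WFDC2 was 0.88 and 0.12. From separate channel levels, vitrified minus frozen was 0.87 for SCGB1A1 and 1.11 for WFDC2.

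The uterine list's median of 0.05 in vitrified embryos was 0.14 with the scanner ratio. Its frozen median of 0.11 was 0.31 with the scanner ratio, 0.0915 without background correction, 0.155 with an offset of 16, 0.0605 with median centring, 0.0508 without the filter, 0.114 with the slide, and 0.0857 to 0.153 with 1 array left out. Between treatments the median of -0.024 was 0.0153 with median centring, 0.0239 with the slide, and -0.0621 to 0.0772 with 1 array left out. Of 342 alternatives for 18 other list medians, 22 moved by more than the spread between arrays. The later minus earlier difference of SCGB1A1, with alternatives chosen after seeing the data, was 0.08 on average in vitrified embryos (0.00 to 0.30) and -0.57 in frozen embryos (-0.64 to -0.50). Where a value changed, the cause was not tested, other than fewer arrays where 1 was left out. Signals near background limit the control side of the later SCGB1A1 probes.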
